A study of Rattus norvegicus with 16 samples.

Results

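The corticosteroid response of isolated rat glomeruli was followed through 9 genes. They were chosen by their role: the receptors Nr3c1 and Nr3c2, and the hormone-responsive genes Fkbp5, Tsc22d3, Zbtb16, Per1, Klf9, Sgk1 and Dusp1. All 9 of 9 were found by symbol among the 13222 genes of the expression table. Glomeruli were sieved from the kidneys of 16 male Wistar rats killed on day 11, and their poly(A) RNA was sequenced. The 4 groups of 4 rats were healthy controls (Ctl), rats given intravenous puromycin aminonucleoside (PAN), and rats given PAN and daily oral pioglitazone (PAN_Pio) or daily oral GQ-16 (PAN_GQ-16). The labels mention a sham vehicle by gavage without naming the groups that received it, and give no age, dose or pairing.

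PAN is toxic to podocytes, the epithelial cells of the glomerular filter, and is used to model nephrotic syndrome. Pioglitazone is a thiazolidinedione agonist of PPARγ, and GQ-16 is a partial agonist of the same receptor. Rat numbers below only name the rats of a group.

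Glucocorticoids enter cells and bind the glucocorticoid receptor, which is held by a chaperone complex in the cytoplasm, moves to the nucleus and activates or represses genes. The mineralocorticoid receptor binds the same DNA element, and in the distal nephron it answers to aldosterone because the enzyme encoded by Hsd11b2 inactivates glucocorticoids there. Glucocorticoids are a standard treatment of nephrotic syndrome, and podocytes carry the glucocorticoid receptor.

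The level of a gene in a library was its CPM, the reads of the gene relative to all reads of that library. They can be compared between rats but not between genes, since they are not corrected for length. Library totals ran from 13351137 to 21977663 reads. The share of reads from mitochondrial genes lay between 13.9% and 39.6% in Ctl, 5.98% and 10.8% in PAN, 8.77% and 19.4% in PAN_Pio, and 6.76% and 31.4% in PAN_GQ-16. CPM is a share of the whole library, these reads included, and the median log2 change over all genes was 0.28 for PAN against Ctl, 0.21 for PAN_Pio against Ctl and 0.17 for PAN_GQ-16 against Ctl. With median-ratio scaling, which sets the median gene level, the PAN against Ctl median was -0.0032. The tissue label was checked against podocyte markers: the 8 genes of that list were read in every library and summed to between 2113 and 12914 CPM. Proximal tubule markers were also present in every library, at 2310 to 9406 CPM in sum. PAN rat 1 stood apart from its group, with 29 genes more than 4-fold above and 15 more than 4-fold below all other PAN rats. In that rat the collagen gene Col3a1 was at 767 CPM against 3.46 to 13.8 CPM in the others. Ctl rat 1 stood apart as well, with 11 genes more than 4-fold above and 3 more than 4-fold below all other Ctl rats, and its podocyte markers summed to 8348 CPM against 2113 to 4019 CPM in the other Ctl rats.

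Neither receptor gene was called in any comparison. Nr3c1 (ENSRNOG00000014096), which encodes the glucocorticoid receptor, was at 135, 108, 112 and 139 CPM in Ctl rats 1 to 4 and at 142, 144, 144 and 133 CPM in PAN rats. It was at 153, 142, 123 and 142 CPM in PAN_Pio and at 112, 109, 142 and 145 CPM in PAN_GQ-16. All groups overlapped, and the highest library was 1.41 times the lowest. The mean was highest in PAN at 141 ± 5.15 CPM (SD, n = 4), followed by PAN_Pio at 140.0 ± 12.5, PAN_GQ-16 at 127 ± 19.1 and Ctl at 124 ± 15.7, and each step was within the spread between rats. PAN minus Ctl was 0.19 on the log2 scale as deposited (SE 0.125, limma adjusted p = 0.245) and -0.11 (limma adjusted p = 0.430) with median-ratio scaling. The scaling thus turned the direction of this difference. It also turned PAN_Pio minus Ctl (0.18 to -0.038), PAN_GQ-16 minus Ctl (0.034 to -0.14) and PAN_Pio minus PAN (-0.011 to 0.072). Over the 16 libraries Nr3c1 was correlated with the mitochondrial share, with r = -0.77 and rho = -0.62 (adjusted permutation p of 0.00330 and 0.0646 over the 9 genes), and r = -0.61 without the 2 libraries farthest from the median share. With median-ratio scaling r was 0.37, so the sign of this correlation turned with the scaling. CPM counts the mitochondrial reads in its total, so a higher share by itself lowers the CPM of other genes. The p-values of these correlations, here and for Tsc22d3 and Dusp1 below, are therefore a description and no support for a link.

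Nr3c2 (ENSRNOG00000034007), which encodes the mineralocorticoid receptor, was at 9.70, 9.49, 7.94 and 9.96 CPM in Ctl and 8.29, 8.14, 7.66 and 7.68 CPM in PAN. It was at 11.0, 9.05, 6.06 and 10.5 CPM in PAN_Pio and 3.75, 8.13, 9.64 and 6.90 CPM in PAN_GQ-16. The lowest value, in PAN_GQ-16 rat 1, rests on 71 reads. Group means ran from 9.27 ± 0.911 CPM in Ctl through 9.17 ± 2.24 in PAN_Pio and 7.94 ± 0.320 in PAN to 7.10 ± 2.50 in PAN_GQ-16 (SD, n = 4). PAN and Ctl overlapped as deposited, whereas after median-ratio scaling all PAN rats lay below all Ctl rats, as for 15.8% of all genes in one direction or the other, with a log2 change of -0.47 (limma adjusted p = 0.189). PAN_GQ-16 against Ctl gave -0.40 (SE 0.212, limma adjusted p = 0.255). It was -0.16 without PAN_GQ-16 rat 1 and -0.56 (limma adjusted p = 0.149) with median-ratio scaling.

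**Figure D1:**
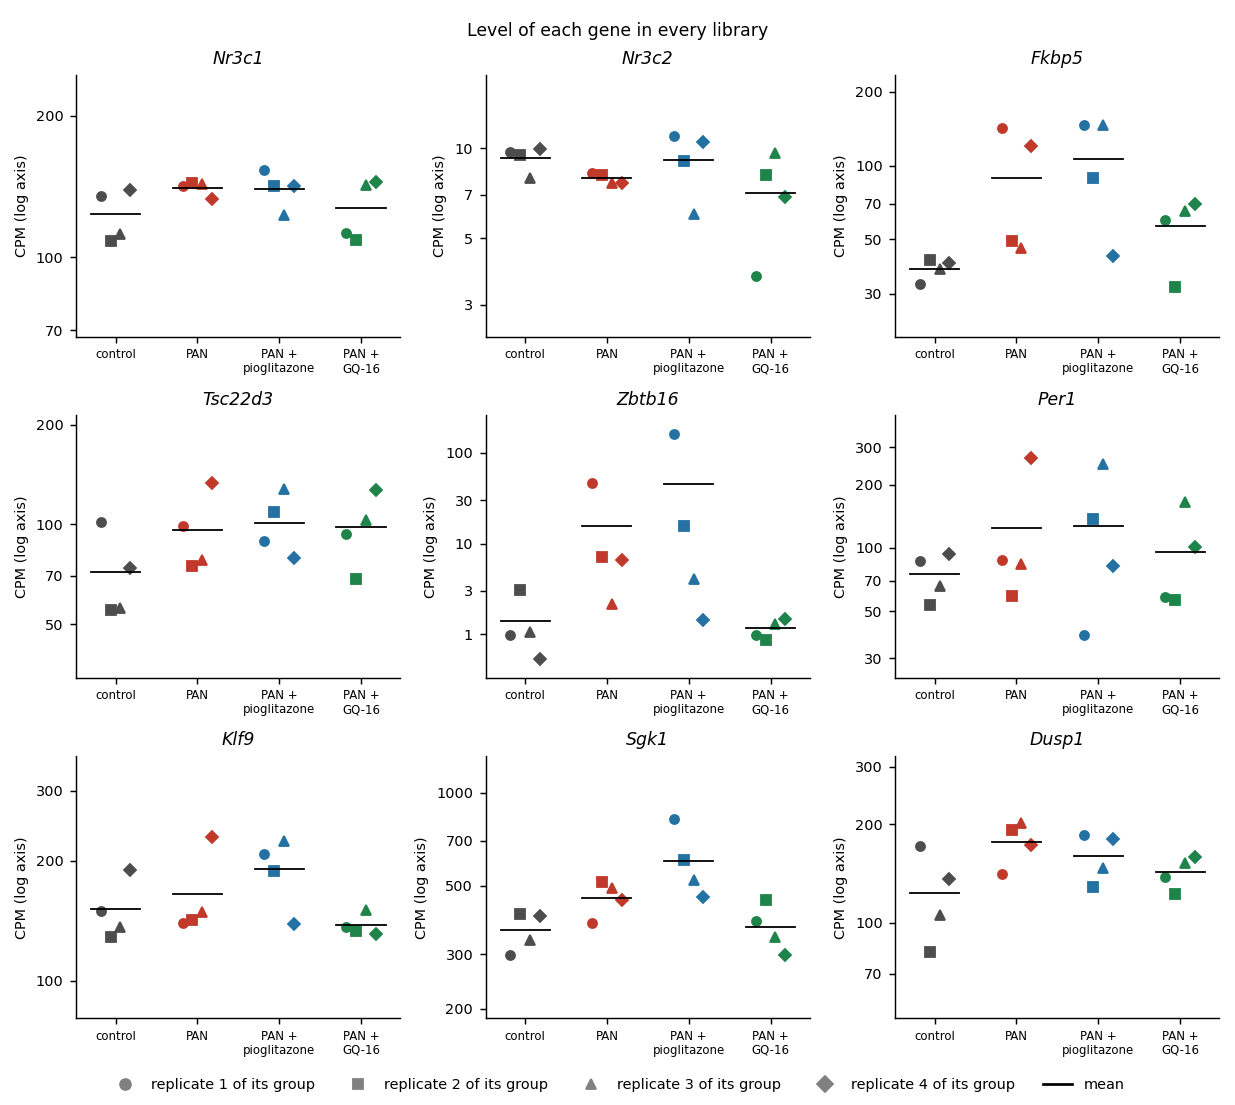
Level of each of the 9 genes (CPM, log axis) in every library by group. Each point is 1 rat, its shape gives the replicate number within the group, and the bar is the group mean. Fkbp5 in the 4 Ctl rats lies between 32.8 and 41.2 CPM, and Zbtb16 ranges from 0.530 to 162 CPM.

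RefSeq promoter windows on assembly GRCr8, from 250 bases before a transcription start to shortly after it, were matched by symbol for 7 of the 9 genes, in 12 windows. Nr3c2 and Zbtb16 had no window. The full palindromic glucocorticoid response element, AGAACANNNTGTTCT, was searched on both strands and was in 0 of the 12 windows and in 5 of 33469 windows of all genes. Its looser core, ACANNNTGT, which every full element contains, was in 1 of the 12 windows and in 6.86% of all windows. That window is 1 of the 3 windows of Tsc22d3, which has 3 listed starts. The 250 bases before this Tsc22d3 start, at chrX:109065431-109065680 on the minus strand, are shown because they hold the core match. It is in capitals and begins 183 bases before this start.

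Tsc22d3: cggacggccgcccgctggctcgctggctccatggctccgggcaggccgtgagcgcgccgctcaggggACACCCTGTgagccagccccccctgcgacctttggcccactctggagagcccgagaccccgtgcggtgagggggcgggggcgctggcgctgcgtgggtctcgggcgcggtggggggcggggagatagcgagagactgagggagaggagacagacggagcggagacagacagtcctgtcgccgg

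The upstream 250 bases of Dusp1, at chr10:17184603-17184852 on the plus strand, are shown for contrast, since their matches were to elements of other pathways. The first capitals mark the cyclic AMP response element TGACGTCA, 124 bases before the start, which is in 1.83% of all windows. The second mark the E-box CACGTG, 107 bases before the start, which is in 6.42% of all windows. Both are palindromes, so the strands are the same, and neither was in another of the 12 windows.

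Dusp1: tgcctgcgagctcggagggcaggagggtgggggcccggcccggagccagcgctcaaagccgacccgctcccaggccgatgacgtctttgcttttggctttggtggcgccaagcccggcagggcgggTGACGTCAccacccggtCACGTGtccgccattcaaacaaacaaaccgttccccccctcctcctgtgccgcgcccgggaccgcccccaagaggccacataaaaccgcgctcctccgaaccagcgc

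These are letter matches in RefSeq windows and carry no measurement of binding. The window is short, and an element farther away would not be seen.

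Fkbp5 (ENSRNOG00000022523) encodes a co-chaperone of the receptor complex that lowers its affinity for hormone and is itself induced by glucocorticoids. It was at 32.8, 41.2, 37.9 and 39.9 CPM in Ctl rats 1 to 4, at 142, 49.2, 46.2 and 120.1 CPM in PAN, at 147, 89.1, 146 and 42.9 CPM in PAN_Pio and at 60.2, 32.1, 65.4 and 69.9 CPM in PAN_GQ-16. The Ctl rats were close together, while PAN rats fell into a pair far above Ctl and a pair just above it. All PAN rats and all PAN_Pio rats were above all Ctl rats, and PAN_GQ-16 overlapped Ctl through rat 2. Group means were ordered PAN_Pio (106 ± 50.3 CPM), PAN (89.3 ± 48.9), PAN_GQ-16 (56.9 ± 17.0) and Ctl (37.9 ± 3.69, SD, n = 4), with each neighbouring pair except PAN_GQ-16 and Ctl differing by less than the larger SD.

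For Fkbp5 the log2 change was 1.04 (SE 0.402, limma adjusted p = 0.0679) in PAN against Ctl and 1.31 (SE 0.402, limma adjusted p = 0.0676) in PAN_Pio against Ctl, so neither passed the adjusted threshold of 0.05. Without PAN rat 1, the PAN change was 0.77 (limma adjusted p = 0.205), and without PAN rat 3 it was 1.30 and passed the threshold (limma adjusted p = 0.0473). Without PAN_Pio rat 4, the lowest of its group, the PAN_Pio change was 1.69 (limma adjusted p = 0.0359). With median-ratio scaling the changes were 0.75 and 1.10, with limma adjusted p of 0.264 and 0.163, and the groups then overlapped.

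Tsc22d3 (ENSRNOG00000056135) encodes GILZ, a leucine zipper protein that carries part of the anti-inflammatory action of glucocorticoids. Its levels were 102, 55.3, 56.1 and 73.9 CPM in Ctl, 99.2, 74.9, 77.9 and 133 CPM in PAN, 88.9, 109, 128 and 79.3 CPM in PAN_Pio and 93.7, 68.3, 103 and 127 CPM in PAN_GQ-16. Each PAN group overlapped Ctl, mainly through Ctl rat 1. Means of 101 ± 21.6 CPM in PAN_Pio, 98.1 ± 24.4 in PAN_GQ-16 and 96.3 ± 26.9 in PAN were within the spread of each other, and Ctl was lowest at 71.8 ± 21.8 (SD, n = 4). The changes against Ctl were 0.43 for PAN, 0.51 for PAN_Pio and 0.46 for PAN_GQ-16, with limma adjusted p of 0.178, 0.172 and 0.246. Without Ctl rat 1 the PAN change was 0.61 (limma adjusted p = 0.0515). With median-ratio scaling the changes were 0.13 for PAN, 0.30 for PAN_Pio and 0.28 for PAN_GQ-16. Tsc22d3 was correlated with the mitochondrial share over the 16 libraries, with r = -0.73 and rho = -0.58 (adjusted permutation p of 0.00330 and 0.0646), r = -0.47 without the 2 libraries farthest from the median share, and r = -0.38 with median-ratio scaling.

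Zbtb16 (ENSRNOG00000029980) encodes PLZF, a zinc finger repressor that is among the genes most sensitive to glucocorticoids in many cells. It was read at 0.986, 3.08, 1.04 and 0.530 CPM in Ctl, which rest on 9 to 61 reads. In PAN rats it was at 46.0, 7.08, 2.14 and 6.63 CPM and in PAN_Pio rats at 162, 15.8, 4.10 and 1.42 CPM, and in PAN_GQ-16 rats it was at 0.971, 0.861, 1.31 and 1.48 CPM. A single rat led each of the PAN and PAN_Pio groups, and the lowest rat of each was within the Ctl range. All PAN_GQ-16 rats lay within the Ctl range and below all PAN rats. Means were 45.9 ± 77.9 CPM in PAN_Pio, 15.5 ± 20.5 in PAN, 1.41 ± 1.14 in Ctl and 1.15 ± 0.287 in PAN_GQ-16 (SD, n = 4), so in PAN_Pio and PAN the SD was larger than the mean. Zbtb16 reached 2 CPM in 8 libraries, the fewest that any gene of the table has, and 7 of these were PAN or PAN_Pio rats and none was a PAN_GQ-16 rat. It is therefore in the table through the groups where it is high, and its differences from the other groups are a description rather than support, also where it adds 1 to a count over the 9 genes.

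The log2 change of Zbtb16 was 2.12 (SE 0.980, limma adjusted p = 0.112) in PAN against Ctl and 2.60 (SE 0.980, limma adjusted p = 0.117) in PAN_Pio against Ctl. PAN_GQ-16 against PAN gave -2.19 (SE 0.980, limma adjusted p = 0.586), or -1.43 without PAN rat 1. Leaving out PAN rat 1 brought the PAN change to 1.37 (limma adjusted p = 0.321), and leaving out PAN_Pio rat 1 brought the PAN_Pio change to 1.40 (limma adjusted p = 0.209). With the mean level of tubule markers as a covariate the same changes were 0.84 and 0.65, with limma adjusted p of 0.556 and 0.790.

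Per1 (ENSRNOG00000007387) encodes a repressor of the circadian clock and is also a direct glucocorticoid target. It was at 86.5, 53.5, 65.9 and 93.3 CPM in Ctl and at 87.3, 58.8, 84.2 and 266 CPM in PAN. It was at 38.8, 138, 249 and 81.6 CPM in PAN_Pio and at 58.7, 56.7, 166 and 101 CPM in PAN_GQ-16. Above the Ctl range lay 1 PAN rat, 2 PAN_Pio rats and 2 PAN_GQ-16 rats, and the rest were within the Ctl range except PAN_Pio rat 1, which was below it. The rats highest in Per1 in PAN and PAN_Pio were also those with the most proximal tubule marker reads: these markers summed to 9406 CPM in PAN rat 4 against 2734 to 4995 CPM in the other PAN rats, and to 7896 CPM in PAN_Pio rat 3 against 2310 to 3957 CPM in the other PAN_Pio rats. In PAN_GQ-16 rat 3 was highest in Per1 with a sum of 6316 CPM, beside 2861 to 6054 CPM in the others. In Ctl the order differed: rat 4 was highest in Per1 with a sum of 6319 CPM, and rat 1 had the highest sum, 8151 CPM. A fit with tubule markers as a covariate took in Per1. Over 9 alternative settings, that fit among them, Per1 in PAN against Ctl changed by 0.20 to 1.02 (0.50 as deposited). In PAN_Pio against Ctl it changed by 0.26 to 1.27 over 10 settings (0.48 as deposited), and 0 passed the adjusted threshold in either. Apart from that fit, the part of tubule content in the Per1 values was not tested. The mean was 127 ± 91.1 CPM in PAN_Pio, 124 ± 95.6 in PAN, 95.4 ± 51.1 in PAN_GQ-16 and 74.8 ± 18.4 in Ctl (SD, n = 4), and each step was smaller than the larger SD of its pair. PAN_Pio against PAN was -0.020 on the log2 scale as deposited and 0.062 with median-ratio scaling. The labels do not give the hour at which each rat was killed.

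Klf9 (ENSRNOG00000014215) encodes a Krüppel-like factor induced by glucocorticoids and by thyroid hormone. It was at 149, 129, 137 and 189 CPM in Ctl, 139.6, 142, 149 and 229 CPM in PAN, 209, 189, 224 and 139 CPM in PAN_Pio and 136, 133, 151 and 131 CPM in PAN_GQ-16. PAN rat 4 stood above its group, as it did for Per1 and Tsc22d3. In PAN_Pio 3 rats were above all PAN_GQ-16 rats, and rat 4 fell among them. Means were ordered PAN_Pio (190.3 ± 37.1 CPM), PAN (165 ± 43.0), Ctl (151 ± 26.9) and PAN_GQ-16 (138 ± 8.82, SD, n = 4), with neighbours within the larger SD. The difference of PAN_Pio from Ctl was 0.32 in log2 units with an SE of 0.179 (limma adjusted p = 0.225), and 0.11 (limma adjusted p = 0.804) with median-ratio scaling. PAN minus Ctl turned from 0.11 to -0.19 with that scaling.

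Sgk1 (ENSRNOG00000011815) encodes a serum- and glucocorticoid-regulated kinase that raises sodium channel activity in the distal nephron and is induced through both receptors. It was at 297, 405, 332 and 398 CPM in Ctl and at 377, 512, 492 and 449 CPM in PAN. In PAN_Pio it was at 821, 606, 520.5 and 459 CPM and in PAN_GQ-16 at 383, 448, 339.9 and 298 CPM. All PAN_Pio rats were above all Ctl and all PAN_GQ-16 rats, and Ctl and PAN_GQ-16 covered almost the same range. The order of means was PAN_Pio (601 ± 158 CPM), PAN (458 ± 59.8), PAN_GQ-16 (367 ± 64.1) and Ctl (358 ± 52.1, SD, n = 4), of which PAN_Pio and PAN, and PAN_GQ-16 and Ctl, differed by less than the larger SD.

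Sgk1 was the 1 gene of the 9 to pass the adjusted threshold in any comparison: its level rose in PAN_Pio against Ctl, with a log2 difference of 0.72 (95% interval 0.33 to 1.12, SE 0.187, limma adjusted p = 0.0370). The call was sensitive to the processing. With median-ratio scaling the change was 0.50 (limma adjusted p = 0.265) and the groups overlapped, and without PAN_Pio rat 1 it was 0.56 (limma adjusted p = 0.0827). Without Ctl rat 2, Ctl rat 3 or PAN_Pio rat 2 the limma adjusted p was 0.0870, 0.131 or 0.109. PAN against Ctl gave 0.36 (SE 0.187, limma adjusted p = 0.154), and 0.053 after median-ratio scaling. PAN_GQ-16 against Ctl was 0.032 as deposited and -0.14 after that scaling.

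The 3 genes whose levels followed Sgk1 most closely over the 16 libraries were Gcnt2, Adamtsl2 and Cyp4f5, with Pearson correlations of 0.89, 0.88 and 0.86. After the group means were removed the correlations were 0.78, 0.80 and 0.66. Gcnt2, a glycosyltransferase of the I blood group antigen, had group means of 104 CPM in Ctl, 123 in PAN, 149.7 in PAN_Pio and 92.7 in PAN_GQ-16, the same order at the top as Sgk1.

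Dusp1 (ENSRNOG00000003977) encodes a phosphatase of MAP kinases and is induced both by glucocorticoids and by stress. It was at 171, 81.7, 106 and 136 CPM in Ctl and 141, 192, 202 and 173 CPM in PAN. It was at 186, 128, 147 and 181 CPM in PAN_Pio and 138, 122, 153 and 159 CPM in PAN_GQ-16. Of the PAN rats 3 were above all Ctl rats, and Ctl rat 1 kept the groups overlapping. Means ran from 177 ± 26.8 CPM in PAN through 160.4 ± 27.4 in PAN_Pio and 143 ± 16.6 in PAN_GQ-16 to 124 ± 38.7 in Ctl (SD, n = 4), and every step was smaller than the larger SD. The PAN change was 0.55 (SE 0.199, limma adjusted p = 0.0546), and 0.25 (limma adjusted p = 0.293) with median-ratio scaling. It passed the threshold without Ctl rat 1, at 0.73 (limma adjusted p = 0.0109), and without Ctl rat 4, at 0.62 (limma adjusted p = 0.0460). Without Ctl rat 2 it was 0.37 (limma adjusted p = 0.202). Dusp1 was correlated with the mitochondrial share with r = -0.80 and rho = -0.58 (adjusted permutation p of 0.00234 and 0.0646), r = -0.50 without the 2 libraries farthest from the median share, and r = -0.44 with median-ratio scaling. How much of any of these differences follows the mitochondrial share was not tested.

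Set side by side, PAN against Ctl called 0 of the 9 genes at the adjusted threshold, where 22.3% of all genes were called. At an unadjusted p under 0.05 limma counted 3 of the 9 (Fkbp5, Zbtb16 and Dusp1) against 42.1% of all genes, and with median-ratio scaling 0 of the 9 against 26.6%. The 9 genes had a median log2 change of 0.43 beside 0.28 over all genes, and 8 of the 9 were higher where 83.3% of all genes were higher, or 6 of 9 beside 49.5% with median-ratio scaling. Only Fkbp5 of the 9 had groups that did not overlap, against 23.3% of all genes. The shares of the 9 called, with an unadjusted p under 0.05 and without overlap were all smaller than the background shares.

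**Figure D2:**
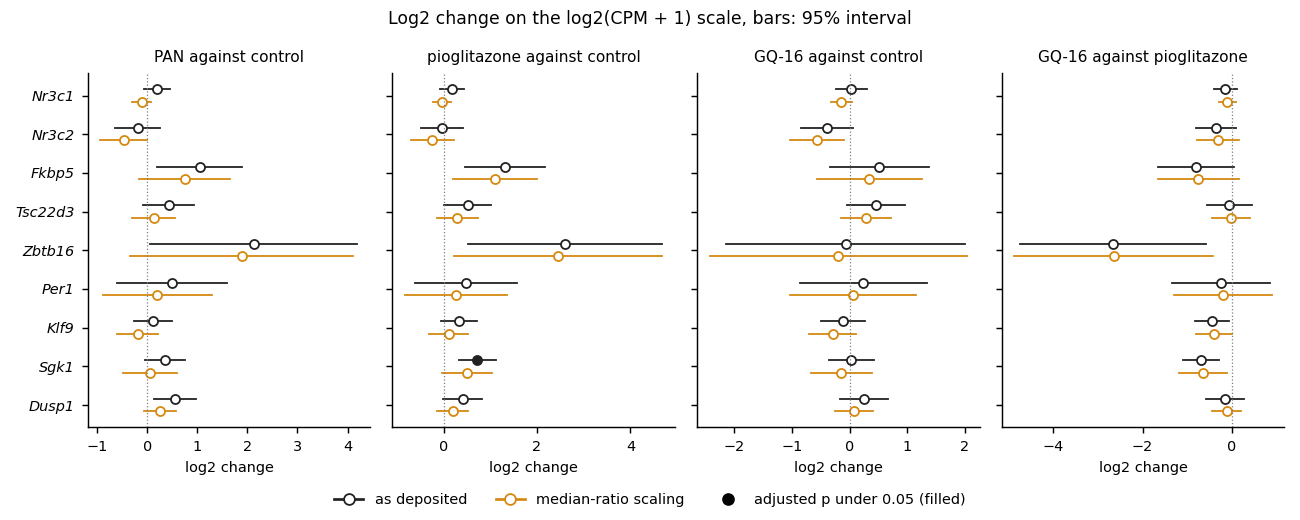
Log2 change of each of the 9 genes on the log2(CPM + 1) scale, with 95% intervals, as deposited and with median-ratio scaling. Shown are the comparisons with Ctl and PAN_GQ-16 against PAN_Pio. The 1 call, Sgk1 in PAN_Pio against Ctl, is at 0.72, and the intervals of Zbtb16 are the widest.

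PAN_Pio against Ctl called Sgk1 alone, 1 of 9 beside 4.98% of all genes, and 0 beside 2.85% with median-ratio scaling. Limma counted 4 of the 9 at an unadjusted p under 0.05 (Fkbp5, Tsc22d3, Zbtb16 and Sgk1) against 28.5% of all genes, and 2 of the 9 (Fkbp5 and Zbtb16) against 20.7% with median-ratio scaling. Sgk1 and Fkbp5 had groups that did not overlap, 2 of 9 beside 14.1% of all genes. PAN_GQ-16 against Ctl called 0 of the 9, beside 0.151% of all genes, and 0 of the 9 had an unadjusted p under 0.05 by limma, beside 23.9% of all genes, or 1 of 9 (Nr3c2) beside 24% with median-ratio scaling. Voom on the recovered reads called 0 of the 9 in each of the 6 comparisons. The comparisons with Ctl share the same 4 Ctl rats and are not independent of each other.

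Against PAN, neither drug moved any of the 9 genes past the adjusted threshold. PAN_Pio against PAN called 0 of 9, and 0% of all genes, and limma gave 0 of 9 and 3.74% of all genes an unadjusted p under 0.05. Changes of the 9 genes ran from -0.14 for Dusp1 to 0.47 for Zbtb16, and 6 of 9 were positive, beside 27.4% of all genes. With median-ratio scaling 8 of 9 were positive, beside 46.5% of all genes. PAN_GQ-16 against PAN called 0 of 9, beside 0.0151% of all genes, and limma gave 1 of 9, Zbtb16, an unadjusted p under 0.05, beside 8.27% of all genes, which became 0 of 9 beside 6.87% with median-ratio scaling. In that comparison 8 of the 9 genes were lower, where 20.7% of all genes were higher (8 lower with median-ratio scaling too, where 51.7% of all genes were higher), and only Zbtb16 had groups that did not overlap (3.62% of all genes). Zbtb16 is in the table through the groups where it is high, so its p-value and its separation here are a description. Sgk1 was 0.37 higher with pioglitazone (SE 0.187, limma adjusted p = 0.916) and 0.32 lower with GQ-16 (SE 0.187, limma adjusted p = 0.681), each against PAN. With median-ratio scaling the log2 changes were 0.45 and -0.20.

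The compounds were compared directly as well, with the caution that the labels give no dose for either. Pioglitazone is a thiazolidinedione and a full agonist, while GQ-16 is a thiazolidinedione derivative that acts as a partial agonist. All 9 genes had lower values in PAN_GQ-16 than in PAN_Pio, under either scaling, where 44.8% of all genes were higher, or 54.9% with median-ratio scaling. None was called, and limma called 0% of all genes in this comparison, but Sgk1 and Klf9 had an unadjusted p under 0.05, beside 5.94% of all genes. With median-ratio scaling Sgk1 did and Klf9 did not, beside 7.26% of all genes. Zbtb16 was under 0.05 with both scalings, but it is in the table through the groups where it is high, so it is not counted with them. For Sgk1 the log2 difference was -0.69 (95% interval -1.09 to -0.30, limma adjusted p = 0.724), and its groups did not overlap, as was so for 2.14% of all genes. With median-ratio scaling it was -0.65 and the groups overlapped. For Zbtb16 it was -2.66 (95% interval -4.74 to -0.59, limma adjusted p = 0.725) and without PAN_Pio rat 1 it was -1.47. For Klf9 it was -0.44 (95% interval -0.82 to -0.063, limma adjusted p = 0.772) and for Fkbp5 -0.79 (95% interval -1.65 to 0.057, limma adjusted p = 0.878). No difference between the compounds passed the adjusted threshold for any of the 9 genes, and the intervals, for example -0.56 to 0.45 for Tsc22d3, do not show that the compounds act alike.

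**Figure D3:**
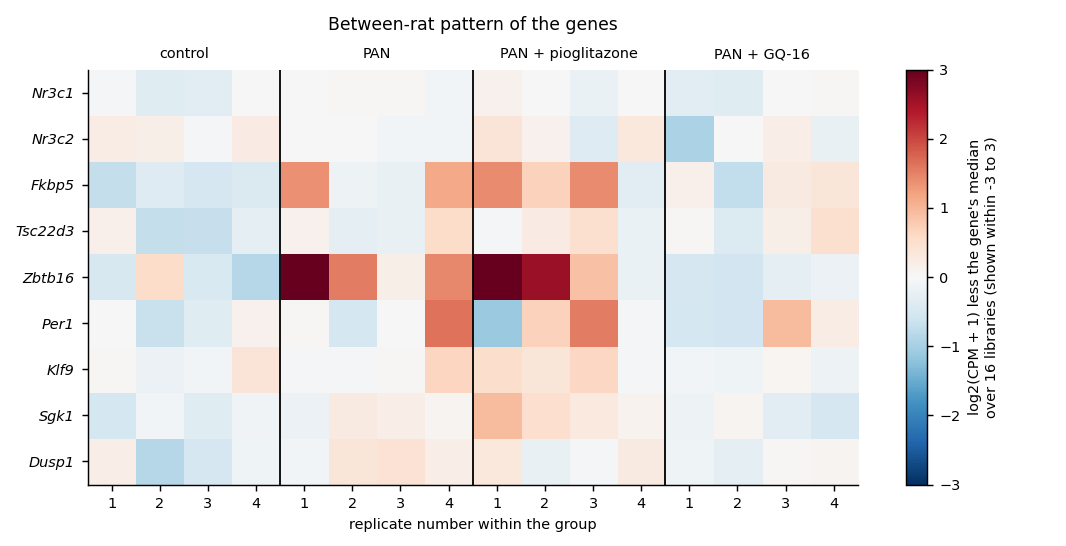
Level of each of the 9 genes in each library, as log2(CPM + 1) less the gene's median over the 16 libraries, with groups in blocks and replicate numbers below. Zbtb16 is darkest in PAN_Pio rat 1 and PAN rat 1, at 162 and 46.0 CPM, and Per1 in PAN rat 4 and PAN_Pio rat 3, at 266 and 249 CPM.

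Rats of the same group differed widely in some of these genes. The SD between rats within groups, on the log2(CPM + 1) scale, was 1.59 for Zbtb16, which ranked 4 of 13222 genes, after Ifit1, LOC690507 and Col3a1. Per1 ranked 187 with 0.84 and Fkbp5 ranked 604 with 0.64, while the median over all genes was 0.24. Both Zbtb16 and Per1 kept nearly the same rank with median-ratio scaling, at 4 and 186. The receptor gene Nr3c1 was at the other end, with an SD of 0.16 and rank 11505. Within groups the SD of Fkbp5 was 0.14 in Ctl, 0.83 in PAN, 0.83 in PAN_Pio and 0.51 in PAN_GQ-16.

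Some of the genes varied together across rats. Of 36 pairs, 5 had a Pearson correlation with an adjusted permutation p under 0.05, and 4 a Spearman correlation. The pairs with Zbtb16 are a description, since that gene is in the table through the PAN and PAN_Pio libraries where it is high. Fkbp5 and Zbtb16 gave r = 0.75 and rho = 0.77 over the 16 libraries, with adjusted permutation p of 0.0117 and 0.0138. It was 0.78 without the 2 libraries farthest from the median of Fkbp5 and 0.76 with median-ratio scaling. Tsc22d3 and Per1 gave r = 0.71 and rho = 0.77, with adjusted permutation p of 0.0221 and 0.0138, and 0.72 without the 2 farthest libraries. Fkbp5 and Tsc22d3 gave r = 0.67 and rho = 0.68, with adjusted permutation p of 0.0362 and 0.0440. Sgk1 and Zbtb16 gave r = 0.68 and rho = 0.57, with adjusted permutation p of 0.0362 and 0.164. The remaining pair, Nr3c1 and Dusp1, had r = 0.76 as deposited and 0.16 with median-ratio scaling, and both genes were correlated with the mitochondrial share above.

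Because these groups differ in treatment, the correlations were repeated after removing the group means. The pair Tsc22d3 and Per1 then gave 0.73 and Fkbp5 and Zbtb16 gave 0.62, with adjusted permutation p of 0.0770 and 0.373. No pair had an adjusted permutation p under 0.05 after centring. Zbtb16 was highest in rat 1 of PAN and PAN_Pio, and Per1 in rat 4 of PAN and rat 3 of PAN_Pio, while Fkbp5 was high in all 4 of these libraries, at 142, 147, 120.1 and 146 CPM.

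**Figure D4:**
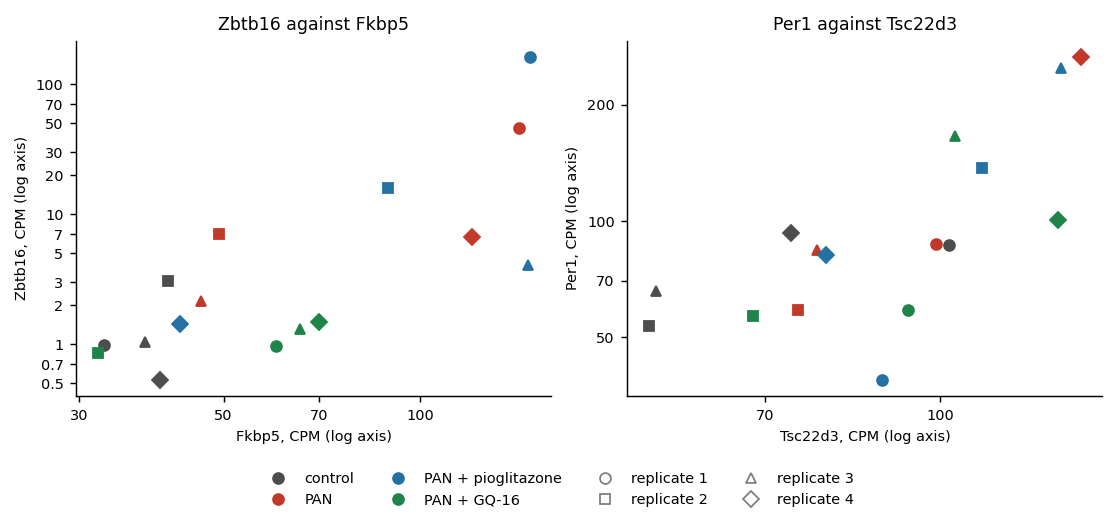
Zbtb16 against Fkbp5 (left) and Per1 against Tsc22d3 (right), in CPM on log axes, with 1 point per library, coloured by group and shaped by replicate number. The correlations over the 16 libraries are 0.75 and 0.71, and the highest Per1 value, 266 CPM, is in PAN rat 4.

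Map3k6 and Klf15, from the list of other glucocorticoid-induced genes, were chosen after their values were seen. Map3k6, a MAP kinase kinase kinase, was at 3.47, 6.04, 2.88 and 4.21 CPM in Ctl, 27.5, 7.85, 8.40 and 16.4 CPM in PAN, 27.8, 11.3, 17.4 and 6.89 CPM in PAN_Pio, and 4.75, 5.06, 8.58 and 8.95 CPM in PAN_GQ-16. The correlation of Fkbp5 with Map3k6 was 0.93, and 0.88 after removing group means. Klf15, a Krüppel-like factor that glucocorticoids induce, was at 61.1 CPM in PAN rat 4 and 55.0 CPM in PAN_Pio rat 3, the rats highest in Per1 and in proximal tubule markers, and its correlation with Per1 was 0.90. These genes were picked for their likeness, so no test applies.

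The wider pathway was read from gene lists. In bulk glomeruli, fewer cells of a type and less RNA per cell cannot be told apart. Receptor chaperones and cofactors had 13 genes in the table, and 2 rose in PAN against Ctl, beside 21.7% of all genes: Hsp90aa1, a chaperone of the receptor (0.44, limma adjusted p = 0.0425) and the remodelling ATPase Smarca4 (0.47, limma adjusted p = 0.0485). With median-ratio scaling, under which 7.12% of all genes rose and 1.51% fell, or without PAN rat 1, where 7.77% rose and 0.159% fell, 0 of the 13 rose, and the coactivator gene Ncoa1 fell with median-ratio scaling. In PAN_Pio against Ctl, where 4.7% of all genes rose and 0.287% fell, the co-chaperone Stip1 alone of this list rose (0.49, limma adjusted p = 0.0386), which was also lost with median-ratio scaling. With that scaling Ncoa1 was the 1 gene of the list that fell in PAN_Pio against Ctl, beside 0.628% of all genes. It also fell in PAN_GQ-16 against Ctl, for which the share of all genes that fell is not given, so that count cannot be judged.

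Of the corticosteroid-metabolising genes 3 of 5 were in the table. Hsd11b2, which inactivates glucocorticoids in the collecting duct, was at 68.9, 71.3, 60.5 and 60.0 CPM in Ctl and 26.3, 18.5, 26.8 and 38.5 CPM in PAN_Pio, and the groups did not overlap. It fell in PAN_Pio against Ctl, with a log2 difference of -1.25 (limma adjusted p = 0.0158), or -1.47 with median-ratio scaling. The collecting duct markers fell with it, 4 of 7 in that comparison including Hsd11b2 itself, beside 0.287% of all genes. With median-ratio scaling 4 of 7 fell as well, beside 0.628% of all genes. Their sum was 229 to 271 CPM in Ctl and 115 to 149 CPM in PAN_Pio. Their part in this fall was not tested, apart from the fit with tubule markers as a covariate, to which Hsd11b2 itself belongs.

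Among other glucocorticoid-induced genes 33 were in the table, and 8 rose and 0 fell in PAN against Ctl, where 21.7% of all genes rose. The 8 became 4 with median-ratio scaling (Cdkn1a, Gadd45a, Pdk4 and Cebpb) and 4 without PAN rat 1, beside 7.12% and 7.77% of all genes. The median log2 change was 0.35, beside 0.28 over all genes. Cdkn1a, the cell cycle inhibitor p21, changed by 1.95 (limma adjusted p = 4.32e-05), Pdk4, which limits glucose oxidation, by 1.63, Map3k6 by 1.51 and Gadd45a, a DNA damage gene, by 1.49. Anxa1, an anti-inflammatory annexin, changed by 1.31 and the transcription factor Cebpb by 0.99. Pdk4 was at 35.6 CPM in PAN rat 1 and at 6.20 to 7.88 CPM in the other PAN rats. Cdkn1a and Map3k6 were among the 3 that rose in PAN_Pio against Ctl, by 1.65 and 1.58 (limma adjusted p of 0.00101 and 0.0333), where 4.7% of all genes rose. The third was Bcl6, a transcriptional repressor, and of the 3 only Cdkn1a passed with median-ratio scaling, where 2.22% of all genes rose. Cdkn1a was the 1 gene of this list called in PAN_GQ-16 against PAN, where 0.0151% of all genes were called. It fell by 1.38 (limma adjusted p = 0.0189), and 0.0695 was the limma adjusted p with median-ratio scaling. The call was also lost without PAN rat 1. Several of these genes also respond to stress and DNA damage, and the list is not specific to the hormone.

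**Figure D5:**
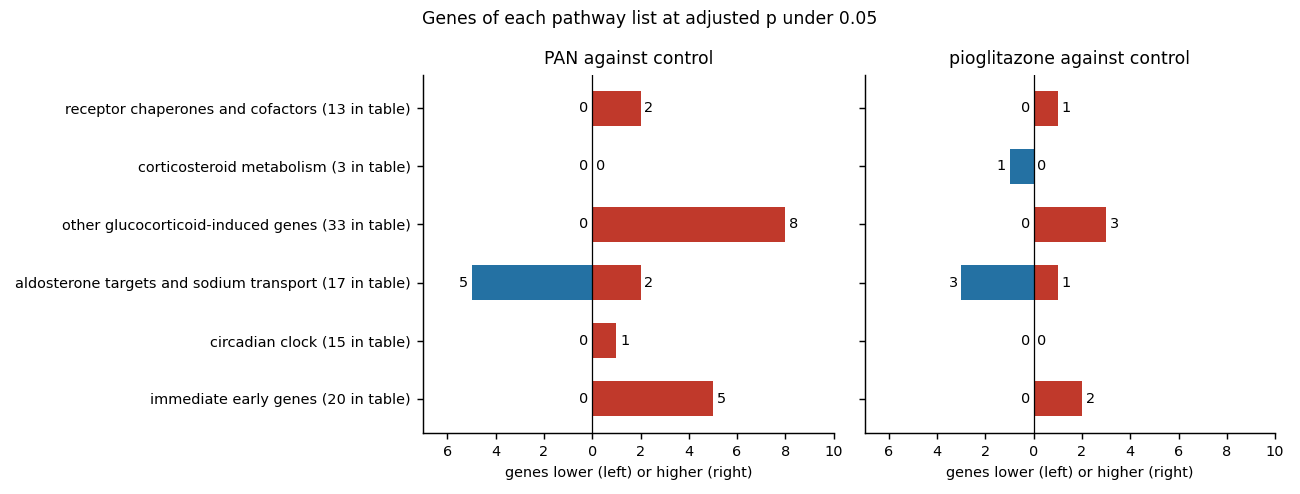
Number of genes of each pathway list at an adjusted limma p under 0.05, lower to the left and higher to the right, in PAN and PAN_Pio against Ctl. Other glucocorticoid-induced genes reach 8 higher of 33 in PAN against Ctl, and aldosterone targets and sodium transport genes are split, 2 higher and 5 lower of 17.

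Aldosterone targets and sodium transport genes were split. Of 17, 2 rose and 5 fell in PAN against Ctl, where 0.522% of all genes fell, and the median log2 change was -0.19 beside 0.28 over all genes. The deubiquitinase Usp2 rose by 1.44 and the scaffold Cnksr3 by 1.19. The fallen genes included the sodium chloride cotransporter Slc12a3, which changed by -1.15 (limma adjusted p = 0.0343) and the potassium channel Kcnj10 by -1.03 (limma adjusted p = 0.0256). With median-ratio scaling 1 rose and 5 fell, beside 7.12% and 1.51% of all genes, and Usp2 and Slc12a3 missed the threshold (limma adjusted p of 0.1002 and 0.0546). Without PAN rat 1 the counts were 1 and 0, beside 7.77% and 0.159% of all genes, and Usp2 also missed the threshold without PAN rat 3 or without PAN rat 4. Thick ascending limb and distal tubule markers fell alongside, 4 of 6 called and Slc12a3 among them, from sums of 851 to 1565 CPM in Ctl to 409 to 970.3 CPM in PAN. Of these markers 3 were called with median-ratio scaling and 0 without PAN rat 1. Apart from the fit with tubule markers as a covariate, their part in the falls was not tested. In PAN_Pio against Ctl Cnksr3 alone rose and 3 fell, beside 4.7% and 0.287% of all genes, among them Scnn1g, a subunit of the epithelial sodium channel, which fell by 1.16 (limma adjusted p = 0.0244). Scnn1b and Scnn1g are also on the collecting duct marker list, of which 4 of 7 fell in that comparison as given for Hsd11b2. Apart from the same covariate fit, the part of these cells in the fall was not tested.

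Clock genes, a set in which Per1 acts, had 15 in the table. Bhlhe41, a repressor of the clock, rose in PAN against Ctl by 1.32 (limma adjusted p = 0.0428), 1 of 15 beside 21.7% of all genes. The call was lost without PAN rat 1, and 0.108 was the limma adjusted p with median-ratio scaling. The immediate early genes, which like Dusp1 are induced within minutes of a stimulus, had 20 in the table, and 5 rose and 0 fell in PAN against Ctl, beside the 21.7% of all genes that rose. Nr4a1, an orphan nuclear receptor, rose by 1.06 and Dusp6, a phosphatase of ERK, by 1.04, with limma adjusted p of 0.000665 and 0.000668. Nr4a1 was at 43.4 to 49.7 CPM in the 4 Ctl rats and 86.5 to 111 CPM in the PAN rats. It was also the 1 gene of these lists that rose in PAN_GQ-16 against Ctl, by 0.90 (limma adjusted p = 0.0219), where 0.151% of all genes were called. The remaining 3 that rose in PAN against Ctl were Ier3, Atf3 and Junb. With median-ratio scaling 3 rose and 1 fell, beside 7.12% and 1.51% of all genes. Without PAN rat 1 the counts were 3 and 0, where 7.77% of all genes rose and 0.159% fell. In PAN_Pio against Ctl 2 of the 20 rose, Nr4a1 and Dusp6, beside 4.7% of all genes, or 1 with median-ratio scaling, beside 2.22%. Over the 6 pathway lists, PAN_Pio against PAN and PAN_GQ-16 against PAN_Pio called 0 genes by limma, and PAN_GQ-16 against PAN called Cdkn1a alone.

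Markers of other cell types were read with the same fit. All 7 mesangium and smooth muscle markers rose in PAN against Ctl, 6 of 7 with median-ratio scaling and 6 without PAN rat 1, and their sum was 291 to 789 CPM in Ctl and 1588 to 2695 CPM in PAN. Leukocyte markers summed to 381 to 668 CPM in Ctl and 644 to 1415 CPM in PAN, with the highest in PAN rat 1, and 4 of 9 rose beside 21.7% of all genes, or 0 with median-ratio scaling (7.12%) and 1 without PAN rat 1 (7.77%). No marker list had a gene at 0 reads in a whole group. The part of these shifts in the levels of the 9 genes was not tested, apart from the fit with tubule markers as a covariate.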

How the data were processed

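Poly(A) RNA of glomeruli from 16 rats was sequenced, and 1 library per rat was analysed. The authors deposited log2 CPM values per gene, and the submitters' processing notes name HISAT2, featureCounts, Subread, limma and the build Rnor_6.0, without versions or roles. The values show that 0.5 read was added to each count before the log, since undoing this gave whole reads for 100% of values (tolerance 0.05 read). Each of the 13222 genes reached 2 CPM in 8 or more libraries, which shows a low-abundance filter before deposit. Library totals were 13351137 to 21977663 reads, so a floor of 3 reads is 0.137 to 0.225 CPM, which covers counting error only.

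The deposited log2 values were turned back into CPM, and log2(CPM + 1) was tested with limma 3.58.1 (R 4.3.3). The model held 4 group means and took in every library, with a variance trend and two-sided tests, and p-values were Benjamini-Hochberg adjusted over 13222 genes at a threshold of 0.05. Fold changes on this scale understate the change of low genes. The labels give rats but no pairing or replicate numbers, so p-values measure the spread between these rats. The script was tested on simulated data. Correlations used 100000 permutations (scipy 1.17.1) and were adjusted over 36 pairs, or over the 9 genes for the mitochondrial share.

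The genes and lists were chosen with earlier results of these data known. All 9 genes are reported whatever their values. Of the pathway lists, 2 genes are not reported here and enter none of the list counts. Of each pathway list a rule names at most 6 genes, those called in at least 1 comparison by size of change. Bcl6, Klf15, Ncoa1 and Scnn1b are named outside that rule. For a called gene of the 9 the 3 genes with a symbol most correlated with it are named. Alternatives were median-ratio scaling, quantile normalization, a pseudocount of 0.1, a mean of at least 10 CPM, only the groups compared, voom on the recovered reads, a covariate for tubule markers or for the number in the sample title, title numbers of 15 or lower, and leaving out each rat. Promoter sequences are RefSeq's on GRCr8, a later build than that of the table.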

Additional observations from a re-analysis of the deposited data

Results flagged for a closer look

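In groups of 4 rats, a value was looked at again when its gap to the nearest other rat took up a larger share of the group's range, on the log2(CPM + 1) scale, than Dixon's 95% critical value for 4 values. Of 36 groups of 4 values (9 genes in 4 groups), 2 met this, where chance gives about 1 in 20, or 1.8. Klf9 in PAN rat 4 was at 229.1 CPM and the other PAN rats were at 139.6 to 149 CPM, a gap of 0.87 of the range, which was 0.79 with median-ratio scaling. The same rat had the highest Per1 and Tsc22d3 of the PAN group, and its proximal tubule markers summed to 9406 CPM against 2734 to 4995 CPM in the others. Over 9 alternative settings, the fit with tubule markers as a covariate among them, Klf9 in PAN against Ctl changed by -0.19 to 0.44. Apart from that fit, the part of tubule content was not tested. Nr3c1 in PAN rat 4 was the lowest of its group at 133.1 CPM, beside 142 to 144 CPM in the others, a gap of 0.84 of a narrow range, which was 0.33 with median-ratio scaling.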

How the results depend on the processing

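The 31 log2 changes of the 9 genes that exceeded their SE were recomputed, giving 542 values, of which 516 kept their direction and their side of the threshold, 11 fell back over it, 6 passed it and 9 turned direction. Nr3c1 turned in PAN against Ctl with median-ratio scaling (-0.11), quantile normalization (-0.095), voom (-0.11) and median-ratio scaling with the title number covariate (-0.12), and in PAN_Pio against Ctl under the same 4 settings (-0.038, -0.042, -0.041 and -0.041). Klf9 in PAN_Pio against PAN turned with the title number covariate (-0.0075). Of the 9 genes, PAN_Pio against Ctl called 0 with median-ratio scaling, quantile normalization, only the groups compared, voom, the tubule covariate and the combined setting, 2 (Sgk1 and Fkbp5) with the title number covariate, and Fkbp5 in place of Sgk1 (limma adjusted p of 0.00571 and 0.0590) with title numbers of 15 or lower; leaving out 1 rat gave 0 to 2 there, 0 to 1 in PAN against Ctl and 0 to 0 elsewhere. Over all genes, PAN against Ctl called 1141 with median-ratio scaling, 1136 with quantile normalization, 1580 with only the groups compared, 1047 with voom, 393 with the title number covariate, 704 with the tubule covariate and 381 with the combined setting, and 838 (without Ctl rat 3) to 4964 (without Ctl rat 1) without 1 rat. PAN_Pio against Ctl called 377, 384, 250 with voom, 393 with a mean of at least 10 CPM, 0 with the tubule covariate, 285 with title numbers of 15 or lower, 397 with the combined setting, and 48 to 1660 without 1 rat. PAN_GQ-16 against Ctl called 98, 67, 35 with voom, 33 with the title number covariate, 9 with the tubule covariate, 144 with title numbers of 15 or lower, 81 with the combined setting, and 0 to 1572 without 1 rat. PAN_GQ-16 against PAN called 0 with median-ratio scaling, quantile normalization, the groups compared, voom, the title number covariate and the combined setting, 1 with a mean of at least 10 CPM, 5 with the tubule covariate, and 0 to 9 without 1 rat. PAN_Pio against PAN called 0 to 1 and PAN_GQ-16 against PAN_Pio 0 to 0 without 1 rat. The causes were not tested. The combined setting, and the list counts without PAN rat 1 or with median-ratio scaling, were added after seeing the data. Title numbers of 15 or lower were not run against PAN, which has 1 such rat, and what the numbers stand for is not given in the labels. No paired analysis was possible because the labels give no replicate numbers and no pairing. Depth limits Zbtb16, read 9 times in its lowest library, and Nr3c2, read 71 times.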
